A study of Mus musculus with 6 samples.

Results

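The 29 protein-coding genes described here encode proteins that build ribosomes in the nucleolus, and were chosen by name: symbols that begin with Utp, Rrp, Nop or Noc followed directly by a digit. They were 29 of the 54532 genes (22046 of them protein-coding) in a table of expression levels from 6 mouse hearts. The levels are FPKM, the fragments per kilobase of exon scaled to a library size. The library sizes used by the authors were not the sums of the reads in the table, and differed from them by group, as given in the processing section. Comparison between genes depends on the gene length used, which among the members was up to 2.94 times the longest transcript (Utp11). To examine what loss of the mitochondrial ribosomal protein Mrps5 does to the heart's transcriptome, the study compared 3 hearts of Mrps5 fl/fl; MCM mice (cKO) with 3 hearts of Mrps5 fl/fl mice (Ctrl). MCM is the αMHC-MerCreMer transgene, whose Cre recombinase is driven in cardiomyocytes and becomes active with tamoxifen. Mice of both genotypes carried the floxed Mrps5 alleles and received tamoxifen at 45 mg/kg/day by intraperitoneal injection for 5 days from 8 weeks of age, and hearts were taken 12 weeks later. By the labels the mice were then 20 weeks old, whereas the study's methods give 12-week-old littermates and ventricular tissue. No Ctrl heart carried MCM, so effects of the Mrps5 deletion and of the Cre transgene with tamoxifen cannot be told apart.

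A ribosome begins as a long precursor RNA transcribed in the nucleolus. The small subunit (SSU) processome, a large particle that holds the U3 small nucleolar RNA and many Utp, Rrp and Nop proteins, folds and cuts the part of the precursor that becomes the 40S subunit, while other proteins with the same name stems, and some of the Noc proteins, act on the 60S precursor. Small nucleolar RNPs (snoRNPs) of the box C/D and box H/ACA types guide methylation and pseudouridylation of the ribosomal RNA. These are factors of the cytosolic ribosome, distinct from the mitochondrial ribosome to which Mrps5 belongs. Ribosome production is known to increase when cardiomyocytes enlarge.

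Mrps5 itself was 5.20, 6.45 and 6.33 FPKM in the Ctrl hearts and 1.12, 1.23 and 1.31 FPKM in the cKO hearts, or 20.4% of the Ctrl mean (log2 fold change of −1.65, SE 0.0944, adjusted p = 0.000202). Totals recovered from the table ran from 15989322 to 24875499 reads per heart, and the pairs of replicates differed by more than counting noise. The mean chi-square per gene of the difference in reads, larger where hearts differ more, was 14.3 to 18.3 between Ctrl hearts. Between cKO replicates 1 and 3 it was 18.1. For the pairs of cKO replicate 2 with replicates 1 and 3 it was 47.3 and 44.9. The cKO replicate 2 heart had 10.7 FPKM of Xist RNA, which was at most 0.127 FPKM in the others. It had no RNA of the 4 Y-linked genes checked, which averaged 7.61 to 8.79 FPKM in each of the others. The study's reporting summary states that all mice were male, which these values of the cKO replicate 2 heart go against. No Ctrl heart had this pattern, so it was not balanced between the groups. Nothing in the labels tied a replicate number to a litter or a day, and p-values measure the spread between these 6 hearts.

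Levels of the assembly factors were higher in cKO hearts across nearly the whole set. Of the 28 members that could be tested, 22 rose, 1 fell (Nop53) and 5 did not pass the test, where a call required an adjusted p under 0.05 from limma's moderated test on log2(FPKM + 1) across 12944 genes. Over all genes tested, 16.3% were called higher and 17% lower, against 78.6% and 3.57% of the tested members. The median log2 fold change of the members was 0.43, against −0.02 for all genes tested, and 27 of 28 members had a positive value. In 25 of the 28 every cKO heart lay above every Ctrl heart, which held for 24.8% of all genes tested. The count of risen members was 14 without Ctrl replicate 1 and 11 without Ctrl replicate 3, when the number of genes called higher overall was 1452 and 1396 in place of 2110. Without cKO replicate 2, the heart with Xist RNA, 20 rose and 1 fell, when 1977 genes were called higher overall. Scaling the libraries without the genes of the mitochondrial genome gave 24 risen members and moved the split of all calls from 2110 higher and 2205 lower to 2649 higher and 1620 lower.

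**Figure D1:**
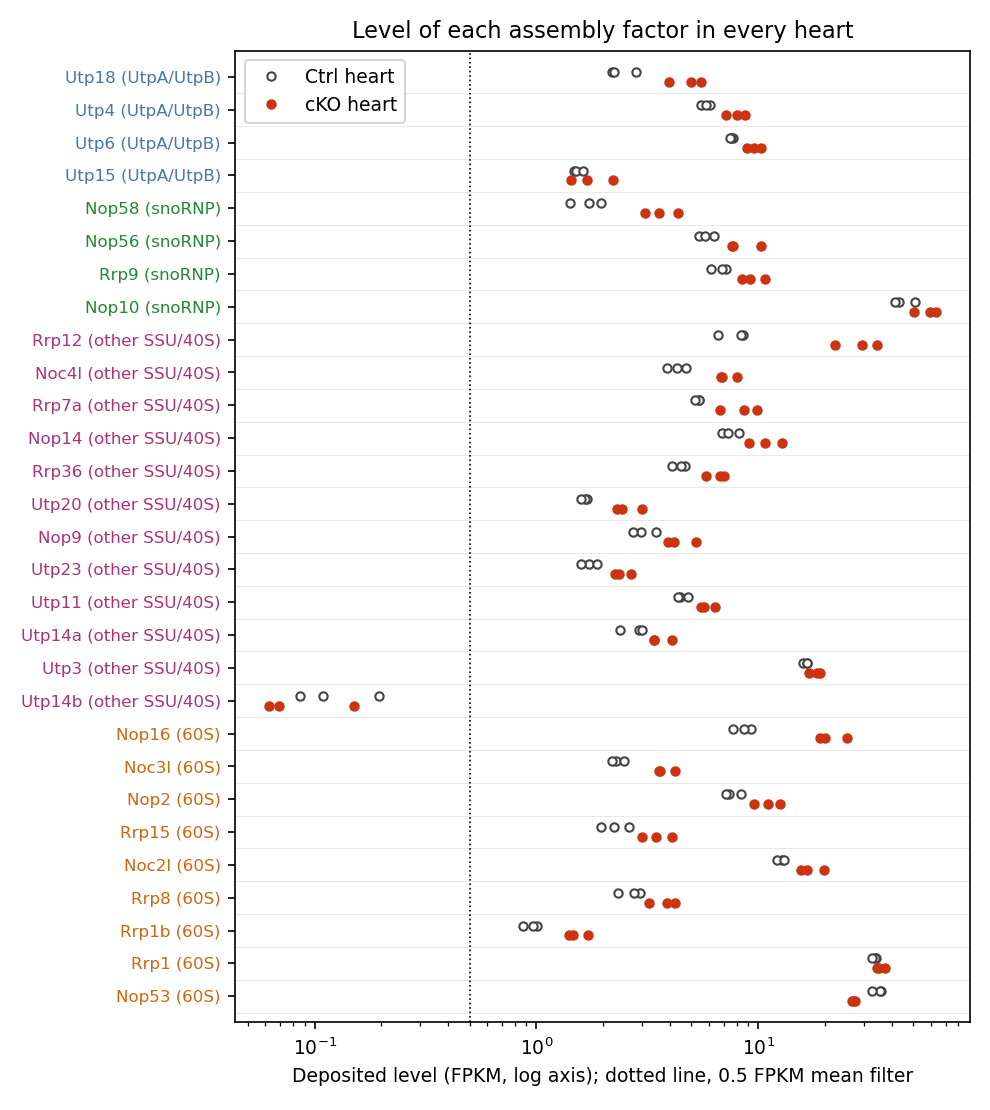
FPKM (log axis) of each of the 29 assembly factors in the 3 Ctrl hearts (open circles) and the 3 cKO hearts (filled circles), ordered within role groups by log2 fold change. For 25 of the 28 factors to the right of the dotted filter line all cKO hearts lie above all Ctrl hearts. Nop53 is the 1 factor with all cKO hearts below all Ctrl hearts, and Utp14b alone lies below the filter.

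The members spanned a wide range of levels. Nop10 was the highest in Ctrl hearts at 45.2 ± 5.15 FPKM (SD, n = 3), followed by Nop53 at 34.6 ± 1.67 and Rrp1 at 33.5 ± 0.749, a pair that differed by less than their spread. Utp3 and Noc2l followed at 16.4 and 12.6 FPKM, and every other member was below 10 FPKM as a Ctrl mean. Rrp1b was the lowest of the tested members, at 0.945 FPKM. Summed over the 29 genes, the level was 242 ± 9.21 FPKM in Ctrl and 327 ± 12.0 FPKM in cKO hearts (SD, n = 3 each), and the groups did not overlap (231 to 249 against 314 to 337 FPKM). Of the net 85.7 FPKM between the means of the sums, Rrp12 made up 24.3%, Nop16 15.0% and Nop10 14.8%, so that these 3 genes together held 54.1% of the difference.

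The naming rule found 4 proteins of UtpA and UtpB, the subcomplexes that bind the 5′ end of the precursor early. Of these 4, 3 rose, beside 16.3% of all genes tested, and the median log2 fold change was 0.35. The count covers these members only and not the whole subcomplexes. Utp18, a UtpB protein, was 2.20, 2.23 and 2.80 FPKM in the Ctrl hearts and 3.96, 5.54 and 4.97 FPKM in the cKO hearts, a log2 fold change of 0.77 (adjusted p = 0.00532, SE 0.125). The lowest cKO heart stood clear of the highest Ctrl heart, and the mean in cKO hearts was 2.00 times that in Ctrl. Utp4, a UtpA protein whose human counterpart is known from an inherited childhood liver disease, was 5.50, 6.05 and 5.83 FPKM in the Ctrl hearts and 8.05, 8.67 and 7.14 FPKM in the cKO hearts. Its log2 fold change was 0.40 (adjusted p = 0.0140, SE 0.0862), without overlap of the groups. Utp6, the other UtpB protein among the members, was 7.73, 7.57 and 7.49 FPKM in the Ctrl hearts and 9.56, 10.3 and 8.88 FPKM in the cKO hearts. Its log2 fold change was 0.30 (adjusted p = 0.0228, SE 0.0744). The Ctrl hearts were tightly grouped and lay below all cKO hearts, and the call was lost under 4 of the 14 other settings tried. Utp15, of UtpA, did not pass: it was 1.47, 1.51 and 1.63 FPKM in the Ctrl hearts and 1.43, 2.22 and 1.69 FPKM in the cKO hearts, with the cKO replicate 1 heart below all Ctrl hearts (log2 fold change 0.12, adjusted p = 0.441).

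Among the 4 snoRNP proteins of the naming rule 3 rose, beside 16.3% of all genes tested. All 3 were proteins of box C/D particles, and Nop10 was the only protein of H/ACA particles among the 4. The median log2 fold change over the 4 was 0.46. Nop58 and Nop56 are the paired core proteins on which fibrillarin, the methyltransferase of box C/D particles, is mounted. Nop58 was 1.96, 1.73 and 1.42 FPKM in the Ctrl hearts and 3.09, 4.33 and 3.58 FPKM in the cKO hearts. Its cKO mean was 2.15 times the Ctrl mean, and its log2 fold change, taken on log2(FPKM + 1), was 0.78 (adjusted p = 0.00464, SE 0.124). Nop56 was 6.32, 5.38 and 5.74 FPKM in the Ctrl hearts and 7.71, 10.3 and 7.64 FPKM in the cKO hearts, with the cKO replicate 2 heart well above the other cKO hearts. Its log2 fold change was 0.48 (adjusted p = 0.0241, SE 0.122), and the call was lost under 3 of the 14 other settings. Rrp9, the protein that marks the U3 particle itself, was 7.17, 6.15 and 6.88 FPKM in the Ctrl hearts and 10.8, 9.23 and 8.46 FPKM in the cKO hearts and rose with a log2 fold change of 0.44 (adjusted p = 0.0184, SE 0.103). Nop10, a small core protein of the H/ACA particles and of telomerase, was 43.4, 51.0 and 41.2 FPKM in the Ctrl hearts and 63.6, 50.5 and 59.5 FPKM in the cKO hearts. The cKO replicate 2 heart lay within the Ctrl range, and the log2 fold change of 0.35 did not pass (SE 0.118, adjusted p = 0.0603). Nhp2, Gar1 and Dkc1, H/ACA core proteins outside the naming rule, were called higher. Their log2 fold changes were 1.70, 0.50 and 0.32 (adjusted p = 0.00121, 0.0328 and 0.0126).

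The largest difference of all members was that of Rrp12, a HEAT-repeat protein that travels with the 40S precursor and takes part in its export from the nucleus (chr19:41862852-41896153, minus strand, GRCm38). It was 8.50, 8.36 and 6.61 FPKM in the Ctrl hearts and 29.4, 34.3 and 22.3 FPKM in the cKO hearts, and the lowest cKO heart was above 2 times the highest Ctrl heart. With means of 7.82 ± 1.05 FPKM in Ctrl and 28.7 ± 6.05 FPKM in cKO hearts (SD, n = 3 each), the log2 fold change was 1.74 (adjusted p = 0.00117, SE 0.166), at the 99.5th percentile of all genes tested. Noc4l and Nop14, which form a complex within the SSU processome, both rose. Noc4l was 4.71, 3.89 and 4.28 FPKM in the Ctrl hearts and 8.01, 6.85 and 6.77 FPKM in the cKO hearts, with a log2 fold change of 0.63 (adjusted p = 0.00383, SE 0.0945). Nop14 was 6.84, 8.21 and 7.31 FPKM in the Ctrl hearts and 9.07, 12.8 and 10.7 FPKM in the cKO hearts, with a log2 fold change of 0.48 (adjusted p = 0.0278, SE 0.128), and its highest value was in cKO replicate 2 where that of Noc4l was in cKO replicate 1. The call for Nop14 was lost under 4 of the 14 other settings tried, and that for Noc4l under none.

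Rrp7a, of the UtpC subcomplex, was 5.42, 5.43 and 5.17 FPKM in the Ctrl hearts and 9.85, 6.71 and 8.65 FPKM in the cKO hearts. The Ctrl hearts agreed closely and the cKO hearts were spread, with a log2 fold change of 0.55 (adjusted p = 0.0164, SE 0.126). Rrp36 was 4.69, 4.09 and 4.51 FPKM in the Ctrl hearts and 7.05, 6.74 and 5.81 FPKM in the cKO hearts and rose with a log2 fold change of 0.47 (adjusted p = 0.00902, SE 0.0902). Utp20, a very large HEAT-repeat protein, was 1.69, 1.66 and 1.58 FPKM in the Ctrl hearts and 2.31, 2.99 and 2.44 FPKM in the cKO hearts, a log2 fold change of 0.43 (adjusted p = 0.0127, SE 0.0914). For both genes the gap between the groups was larger than the range of the Ctrl hearts. Nop9, a Pumilio-repeat protein that binds the 40S part of the precursor RNA, was 3.48, 2.97 and 2.73 FPKM in the Ctrl hearts and 5.24, 4.18 and 3.90 FPKM in the cKO hearts (log2 fold change 0.42, adjusted p = 0.0332). Utp23, a PIN-domain protein, was 1.72, 1.88 and 1.59 FPKM in the Ctrl hearts and 2.67, 2.26 and 2.35 FPKM in the cKO hearts (log2 fold change 0.33, adjusted p = 0.0237). Utp11 was 4.45, 4.81 and 4.34 FPKM in the Ctrl hearts and 5.51, 6.38 and 5.70 FPKM in the cKO hearts (log2 fold change 0.31, adjusted p = 0.0246). In these 3 genes the groups did not overlap, and the call was lost under 4 or 5 of the 14 other settings tried.

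Of the 11 tested members among SSU processome and 40S factors outside UtpA, UtpB and the snoRNPs, 9 rose and all 11 had positive values. Over all 12944 genes tested, 16.3% were called higher and 6227 had positive values. The median log2 fold change of the 11 was 0.43. Utp14a and Utp3 did not pass although their groups did not overlap. Utp14a, the activator of the helicase Dhx37, was 2.91, 3.00 and 2.39 FPKM in the Ctrl hearts and 3.39, 4.11 and 3.40 FPKM in the cKO hearts, with a log2 fold change of 0.30 (adjusted p = 0.0608, SE 0.101). Utp3, also named Sas10, was 16.0, 16.6 and 16.7 FPKM in the Ctrl hearts and 17.0, 19.0 and 18.4 FPKM in the cKO hearts, a difference of 0.14 on the log2 scale (adjusted p = 0.180). Utp14b, an autosomal retrogene copy of Utp14a known for its role in spermatogenesis, was far below the filter of a mean of 0.5 FPKM and was not tested. It was 0.109, 0.194 and 0.0861 FPKM in the Ctrl hearts and 0.0692, 0.151 and 0.0621 FPKM in the cKO hearts, from 9 to 31 reads in each heart, and the groups overlapped.

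**Figure D2:**
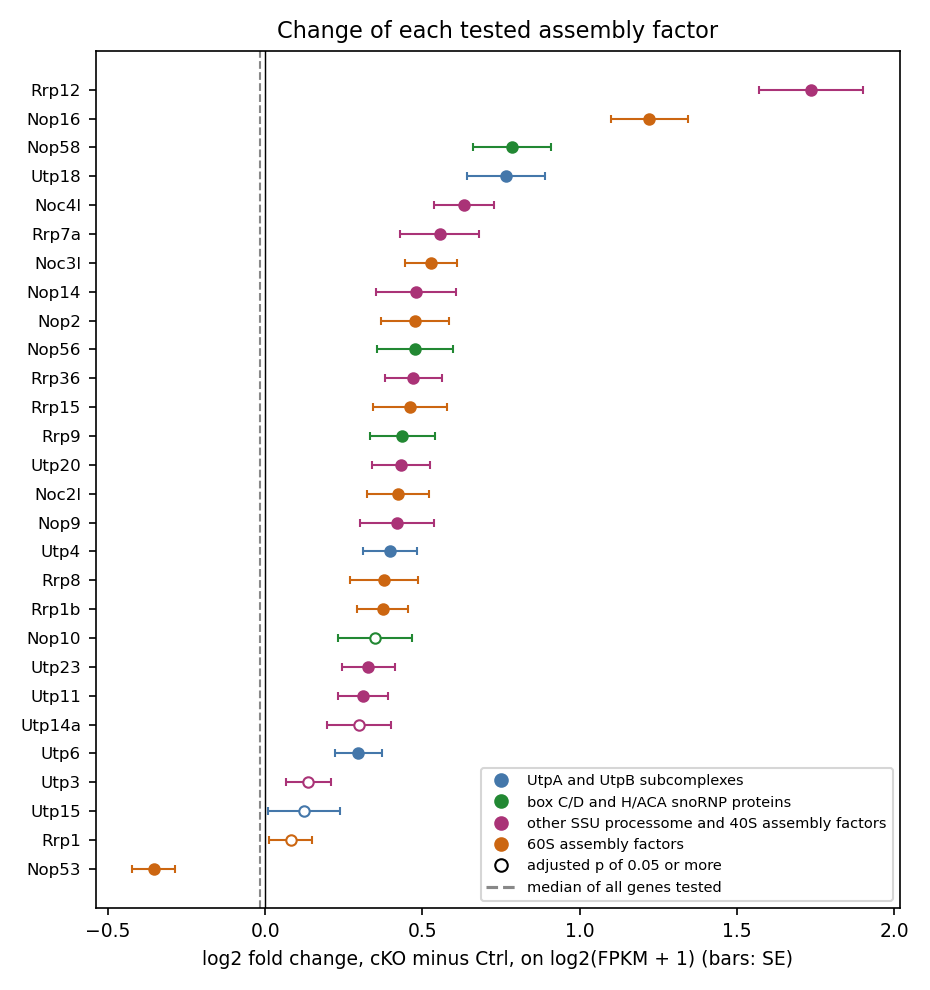
log2 fold change (cKO minus Ctrl on log2(FPKM + 1), bars SE, n = 3 hearts a group) of the 28 tested assembly factors, coloured by role. Filled points passed the test. Rrp12 (1.74) and Nop16 (1.22) stand apart from the rest, 27 of 28 points lie to the right of the dashed median of all genes (−0.02), and Nop53 (−0.35) lies to its left.

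Of the 9 members that act on the 60S precursor, 7 rose, 1 fell and 1 did not pass, with a median log2 fold change of 0.42. Over all genes tested, 16.3% were called higher and 17% lower. Nop16 (chr13:54584185-54590090, minus strand) was 9.27, 8.65 and 7.73 FPKM in the Ctrl hearts and 25.3, 19.9 and 18.9 FPKM in the cKO hearts. All cKO hearts were above 2 times the highest Ctrl heart, the means were 8.55 ± 0.774 FPKM in Ctrl and 21.4 ± 3.40 FPKM in cKO hearts (SD, n = 3 each), and the log2 fold change was 1.22 (adjusted p = 0.00136, SE 0.123), at the 98.5th percentile of all genes tested. Noc3l and Noc2l, partners in complexes that carry early and middle 60S precursors through the nucleus, both rose. Noc3l was 2.28, 2.20 and 2.48 FPKM in the Ctrl hearts and 3.57, 4.20 and 3.62 FPKM in the cKO hearts, with a log2 fold change of 0.53 (adjusted p = 0.00457, SE 0.0829). Noc2l was 12.8, 12.1 and 13.0 FPKM in the Ctrl hearts and 19.9, 15.6 and 16.5 FPKM in the cKO hearts, with a log2 fold change of 0.42 (adjusted p = 0.0182, SE 0.0990). In neither gene did a cKO heart fall into the Ctrl range.

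A pair of methyltransferases of the large ribosomal RNA also rose. Nop2, which makes 5-methylcytosine, was 7.38, 8.36 and 7.16 FPKM in the Ctrl hearts and 9.57, 12.5 and 11.1 FPKM in the cKO hearts (log2 fold change 0.48, adjusted p = 0.0166). Rrp8, which makes 1-methyladenosine, was 2.93, 2.74 and 2.32 FPKM in the Ctrl hearts and 3.22, 3.89 and 4.20 FPKM in the cKO hearts (log2 fold change 0.38, adjusted p = 0.0351). The call for Rrp8 was the least settled of the 22, being lost under 7 of 14 other settings. Rrp15, a component of early 60S precursors, was 2.62, 2.24 and 1.95 FPKM in the Ctrl hearts and 2.99, 4.09 and 3.45 FPKM in the cKO hearts, with a log2 fold change of 0.46 (adjusted p = 0.0252, SE 0.119). Its groups did not overlap, and its call was lost under 5 of the 14 other settings.

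Nop53, which brings the helicase of the nuclear exosome to the 60S precursor so that the 5.8S ribosomal RNA can be trimmed, went the other way (chr7:15936183-15946074, minus strand). It was 35.7, 35.4 and 32.7 FPKM in the Ctrl hearts and 26.6, 26.4 and 27.4 FPKM in the cKO hearts, and every cKO heart was below every Ctrl heart. The means were 34.6 ± 1.67 FPKM in Ctrl and 26.8 ± 0.492 FPKM in cKO hearts (SD, n = 3 each), 77.5% of Ctrl, with a log2 fold change of −0.35 (adjusted p = 0.00934, SE 0.0687). The sign and the call held under all 14 other settings, with log2 fold changes from −0.39 to −0.27.

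Some members have a related copy among the 29, which allows a ratio to be taken within each heart. Rrp1b, a nucleolar protein related to Rrp1, was 1.00, 0.874 and 0.961 FPKM in the Ctrl hearts and 1.40, 1.70 and 1.46 FPKM in the cKO hearts, a log2 fold change of 0.37 (adjusted p = 0.0144, SE 0.0821). Rrp1 was far higher, at 34.2, 33.7 and 32.7 FPKM in the Ctrl hearts and 37.2, 34.3 and 35.0 FPKM in the cKO hearts, with groups that just failed to overlap and a log2 fold change of 0.08 that did not pass (adjusted p = 0.394). The level of Rrp1b relative to Rrp1 was 0.0282 ± 0.00197 in Ctrl and 0.0430 ± 0.00601 in cKO hearts (SD, n = 3 each; difference of the mean log2 ratios 0.60, two-sided exact permutation test, p = 0.1). The ratio of Nop58 to Nop56, related proteins that bind box C/D RNAs side by side, was 0.309, 0.321 and 0.248 in the Ctrl and 0.400, 0.422 and 0.468 in the cKO hearts (difference of the mean log2 ratios 0.56, exact permutation p = 0.1). The ratio of Utp14b to Utp14a, resting on few reads, had a difference of −0.89 (exact permutation p = 0.2). The smallest p that 3 hearts against 3 can give is 0.1, and adjusted over the 3 pairs the values were 0.15, 0.15 and 0.2. For the Nop58 and Rrp1b ratios every cKO heart lay above every Ctrl heart. Transcripts of these pairs shared no stretch of 50 bases, and only the Utp14 pair shared any of 25.

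**Figure D3:**
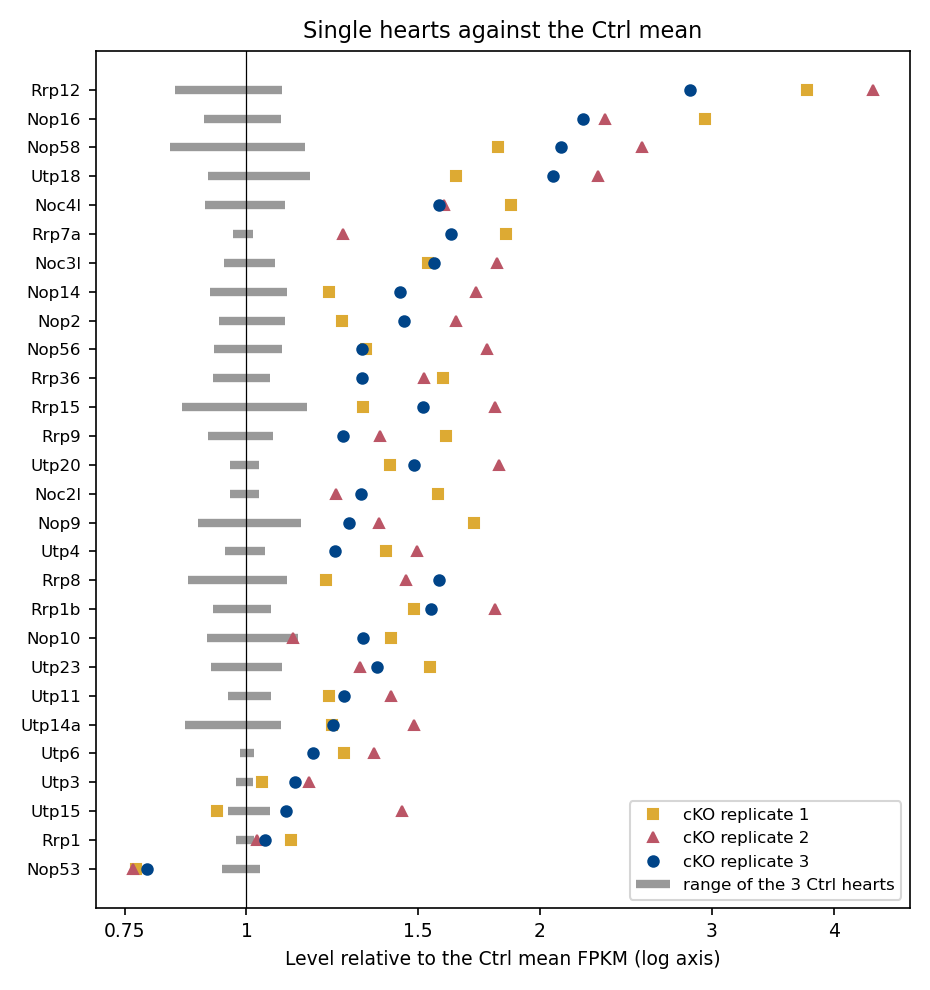
Level of the 28 tested factors in each cKO heart relative to the Ctrl mean (log axis), with the range of the 3 Ctrl hearts as grey bars. Rrp12 reaches 4.39 times the Ctrl mean in cKO replicate 2 and 2.85 in cKO replicate 3, while all 3 cKO hearts lie between 0.76 and 0.79 for Nop53.

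The individual cKO hearts shared the shift. The median member was 1.40 times its Ctrl mean in cKO replicate 1, 1.49 times in replicate 2 and 1.34 times in replicate 3. In these hearts 26, 26 and 27 of the 28 members lay above all Ctrl hearts. The share of all genes above all Ctrl hearts in a single cKO heart was not counted. The 24.8% of all genes is for all 3 cKO hearts at once, a stricter condition, so it cannot be set against these counts. The order of the cKO hearts differed between members. The replicate 2 heart was the highest of the cKO hearts for 16 members, among them Rrp12, Nop58, Utp18 and Nop14, and the replicate 1 heart for 10, among them Nop16, Noc4l, Rrp7a and Noc2l. The replicate 3 heart was the highest for 2. Among 11407 tested protein-coding genes, replicates 1, 2 and 3 were the highest cKO heart for 39.0%, 33.4% and 27.6%. The median coefficient of variation over members was 7.98% in Ctrl and 12.7% in cKO hearts, beside 9.16% and 11.7% for all genes tested.

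Promoter sequence was available for 24 of the 29 members, as windows of 300 bases from RefSeq (250 before to 50 after the transcription start, GRCm38.p6). They were searched for 3 motifs of which none contains another. CACGTG, the canonical E-box bound by Myc-Max and related factors, reads the same on both strands. CCGGAAG, a core bound by ETS factors, was searched on both strands. GCGCATGC, the core of the Nrf1 motif, is not a palindrome and was searched only on the strand of the gene. CACGTG was found in 6 of 24 (25%: Nop2, Rrp7a, Utp14b, Utp18, Utp20 and Utp4), compared with 8.09% of the 27025 genes with a window and 12.1% of the 8967 tested protein-coding genes. The 24 members and the 6 with CACGTG include Utp14b, which was not among the tested genes and lies within Acsl3 on the same strand. CCGGAAG was found in 8 of 24 (33.3%: Noc2l, Noc3l, Nop2, Rrp15, Rrp36, Utp18, Utp3 and Utp4), compared with 9.93% and 20.3%. On the strand of the gene, GCGCATGC was found in none of the 24, and in 2.11% and 4.38% of the same backgrounds. In the bases before the start, CACGTG was in 4 of the 24 (16.7%, against 10.1% of the tested protein-coding genes) and CCGGAAG in 5 of the 24 (20.8%, against 15.8%). These are counts of letters in a window, and no binding was measured. The 3 members with both motifs are shown with the promoter of Nop16, the member with the largest change for which a window was available, which holds neither. Each sequence reads 5′ to 3′ on the strand of the gene, from 250 bases before to 30 bases after the RefSeq start, with CACGTG and with CCGGAAG (or its reverse complement CTTCCGG) in capitals. Utp18 is at chr11:93885737-93886016 on the minus strand, Nop2 at chr6:125131633-125131912 on the plus strand, Utp4 at chr8:106893390-106893669 on the plus strand and Nop16 at chr13:54590045-54590324 on the minus strand.
Utp18: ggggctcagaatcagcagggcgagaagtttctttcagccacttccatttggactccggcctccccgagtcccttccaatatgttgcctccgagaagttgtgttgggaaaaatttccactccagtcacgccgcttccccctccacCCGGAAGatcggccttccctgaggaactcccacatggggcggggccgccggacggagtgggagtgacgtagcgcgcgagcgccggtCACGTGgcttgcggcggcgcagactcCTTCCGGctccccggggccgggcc
Nop2: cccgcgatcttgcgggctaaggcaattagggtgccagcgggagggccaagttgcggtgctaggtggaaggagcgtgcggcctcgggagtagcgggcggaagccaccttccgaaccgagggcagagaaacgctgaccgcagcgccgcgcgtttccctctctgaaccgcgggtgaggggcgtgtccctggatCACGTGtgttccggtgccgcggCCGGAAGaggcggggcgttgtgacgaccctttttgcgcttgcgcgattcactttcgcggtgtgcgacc
Utp4: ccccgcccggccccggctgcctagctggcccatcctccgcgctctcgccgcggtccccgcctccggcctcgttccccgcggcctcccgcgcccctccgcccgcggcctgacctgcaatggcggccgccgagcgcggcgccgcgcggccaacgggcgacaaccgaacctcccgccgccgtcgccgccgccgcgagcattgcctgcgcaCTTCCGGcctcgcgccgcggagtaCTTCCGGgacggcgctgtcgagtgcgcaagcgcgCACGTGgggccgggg
Nop16: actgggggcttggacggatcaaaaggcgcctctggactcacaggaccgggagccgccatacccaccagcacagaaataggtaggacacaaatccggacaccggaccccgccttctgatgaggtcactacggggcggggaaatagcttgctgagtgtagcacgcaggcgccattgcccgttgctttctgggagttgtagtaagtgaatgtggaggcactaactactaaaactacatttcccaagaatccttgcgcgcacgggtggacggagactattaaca

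The E-box begins 20 bases before the start in Utp18, 60 before it in Nop2 and 15 after it in Utp4. Of the 6 members with an E-box, 5 rose and the other, Utp14b, was not tested. Of the 8 members with CCGGAAG, all but Utp3 rose. These counts stand beside 78.6% of all tested members and 16.3% of all genes tested called higher, and a link between motif and change was not tested. Of the 13 members with neither motif, Nop16, Nop58 and Noc4l were among the 5 largest changes. Nop10, Rrp1, Utp14a and Utp15 did not pass the test, and the others of the 13 rose. Transcript GC content was ordinary, with a median of 50.3% for the members and 50.4% for the tested protein-coding genes. The 29 genes lie on 16 chromosomes.

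Small nucleolar RNA genes lie inside 3 members on the same strand, 5 in Nop56, 4 in Nop58 and 1 in Nop53, while 1.85% of tested protein-coding genes host any. It is a known arrangement that small nucleolar RNAs are made from introns of such genes. The 10 hosted RNAs were at 0 or near it in these libraries, which were made from polyadenylated RNA. The spans of 14 members overlap another gene of any kind, and in 6 members exons overlap those of a gene with a mean of at least 0.5 FPKM. Whether strand was used in counting was not given in the sources used here, so reads in shared bases cannot be assigned to either gene. The shared part was 5 bases of Nop56 (with Idh3b), 20 bases of Rrp9 (with Parp3), 29.9% of the exonic bases of Nop9 (with Cideb), 12.5% of Rrp7a (with Serhl), 9.98% of Rrp8 (with Ilk) and 3.18% of Utp14b, which lies within Acsl3 on the same strand. Cideb, Serhl and Ilk averaged 0.659, 2.11 and 0.544 FPKM over the 6 hearts, less than the members they overlap, whereas Idh3b, Parp3 and Acsl3 averaged 199.6 FPKM, 14.6 FPKM and 1.29 FPKM, more than Nop56, Rrp9 and Utp14b.

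Genes of the same pathway outside the naming rule were read from lists of known factors. Their counts stand beside 16.3% of all genes tested called higher and 17% called lower. Of 30 further SSU processome proteins, 17 rose and 0 fell by limma, with a median log2 fold change of 0.37 (1 was lower at an unadjusted p under 0.05, and 0 were called lower with voom). The largest were Dhx37, the helicase that releases U3, at 4.61, 4.54 and 5.00 FPKM in the Ctrl hearts and 12.0, 15.6 and 11.2 FPKM in the cKO hearts (log2 fold change 1.27, adjusted p = 0.00121), and Wdr46, at 5.33, 4.31 and 4.23 FPKM in the Ctrl hearts and 13.0, 9.22 and 9.65 FPKM in the cKO hearts (log2 fold change 1.04, adjusted p = 0.00296). Of 41 further 60S assembly factors tested, 29 rose and 0 fell by limma, with a median of 0.45 (2 lower at an unadjusted p under 0.05, 0 with voom). Bop1, of the PeBoW complex, was 8.74 ± 0.403 FPKM in Ctrl and 20.8 ± 2.51 in cKO hearts, and Gnl3, the GTPase nucleostemin, 3.10 ± 0.193 and 7.69 ± 0.877 (SD, n = 3 each; log2 fold changes 1.16 and 1.08, adjusted p = 0.000832 and 0.000893). In the Bop1 and Gnl3 values, as in those of Dhx37 and Wdr46, all cKO hearts were above all Ctrl hearts.

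Among 14 partners of the snoRNP proteins 9 rose and 1 fell, with a median of 0.34. Nhp2, which sits beside Nop10 in the H/ACA core, was 22.2, 19.8 and 17.3 FPKM in the Ctrl hearts and 84.4, 56.8 and 60.5 FPKM in the cKO hearts, with a log2 fold change of 1.70 (adjusted p = 0.00121, SE 0.165), the difference being close in size to that of Rrp12. Fbl, fibrillarin, was 7.90, 6.47 and 6.54 FPKM in the Ctrl hearts and 16.4, 12.0 and 13.7 FPKM in the cKO hearts (log2 fold change 0.91, adjusted p = 0.00322). Rpap3, of the R2TP assembly chaperone, fell from 6.09 to 4.77 FPKM (difference on the log2 scale −0.30, adjusted p = 0.0257), a call that was lost when libraries were scaled without mitochondrial genes. Of 10 late 40S maturation factors 7 rose, led by Bysl (8.72 to 17.1 FPKM, a log2 difference of 0.89, adjusted p = 0.00111) and Ltv1 (7.60 to 14.7 FPKM, 0.87, adjusted p = 0.00107), and the median was 0.40. The nuclear exosome, which trims the precursors, had a lower median of 0.19. Of its 12 tested genes 5 were higher and 1 lower (41.7% and 8.33%, against 16.3% and 17% of all genes tested). Its 2 largest were Exosc2 (2.47 to 4.91 FPKM, a log2 difference of 0.77, adjusted p = 0.00148) and Exosc1 (5.13 to 9.33 FPKM, 0.75, adjusted p = 0.00419). C1d, its RNA-binding cofactor, fell from 9.07 to 7.01 FPKM (a log2 difference of −0.33, adjusted p = 0.0144).

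**Figure D4:**
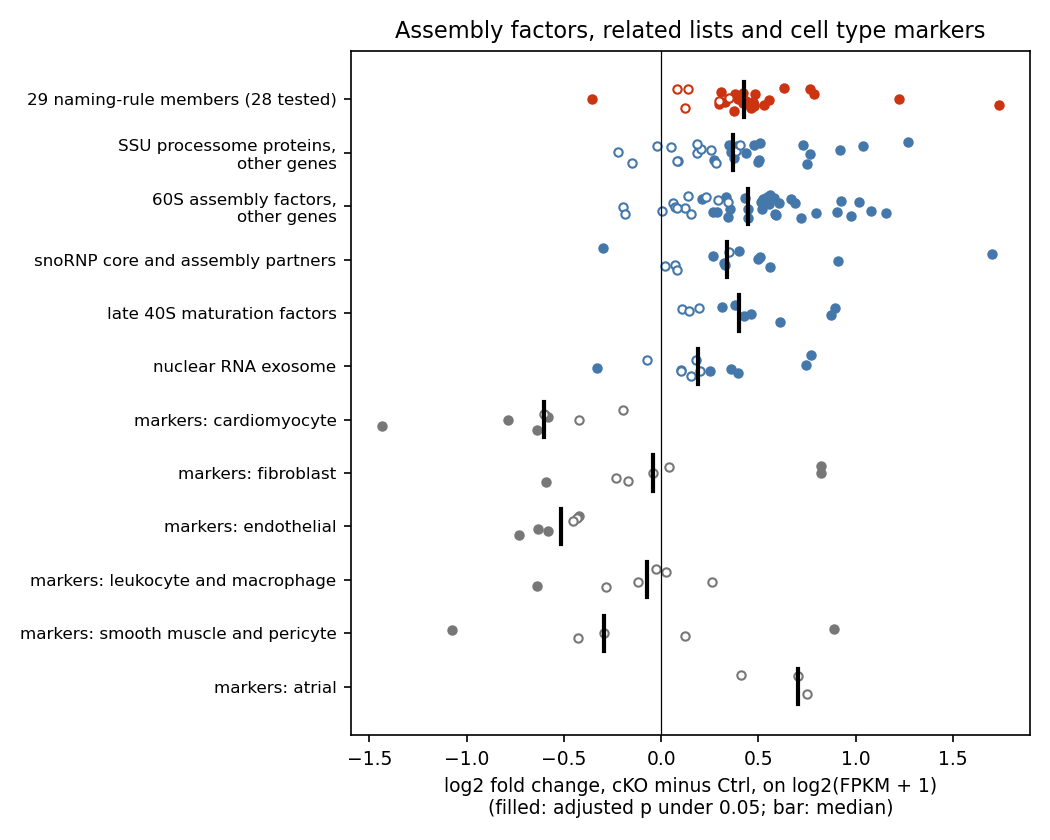
log2 fold change (cKO minus Ctrl) of each tested gene of the members, of 5 lists of related assembly factors and of 6 lists of cell type markers, with the list median as a bar and filled points where the adjusted p was under 0.05. The medians of the assembly lists lie between 0.19 and 0.45, beside 0.43 for the members, and all 8 cardiomyocyte and 6 endothelial markers lie below 0.

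Markers of cell types moved in these hearts too, where 16.3% of all genes tested were called higher and 17% lower. Of 8 cardiomyocyte markers 5 fell, and their summed level was 15044 to 19141 FPKM in Ctrl and 9082 to 16054 FPKM in cKO hearts. Of 6 endothelial markers 4 fell, with sums of 149 to 181 and 105 to 122 FPKM. Among the 7 fibroblast markers 2 rose and 1 fell (223 to 252 and 208 to 217 FPKM), among 6 tested leukocyte markers 1 fell (250 to 333 and 192 to 287 FPKM, levels that overlapped), and among 5 tested smooth muscle and pericyte markers 1 rose and 1 fell (146 to 166 and 94.9 to 122 FPKM). None of 6 proliferation markers reached the filter of 0.5 FPKM, their sums being 0.769 to 2.14 FPKM in Ctrl and 0.555 to 1.54 FPKM in cKO hearts. The 3 atrial markers summed to between 25.2 and 990 FPKM in Ctrl and between 105 and 714 FPKM in cKO hearts, a spread within groups far wider than that of the members. In bulk tissue, fewer cells of a type and less RNA per cell cannot be told apart, and the part that cell composition has in the members' levels was not tested.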

How the data were processed

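RNA-seq libraries of polyadenylated RNA from 3 Ctrl and 3 cKO hearts were used. The deposited FPKM values were made by the authors with HISAT2 (2.0.5) and featureCounts (1.5.0-p3), and DESeq2 (1.16.1) is listed in the submitters' processing notes. Those notes name mm9, but coordinates in the table were identical to GENCODE release M21 (GRCm38) for 53585 of 54495 shared gene IDs and for 28 of the 29 members. FPKM times gene length gave whole reads within 0.01 read for 100% of values. These recovered reads summed to 15989322 to 24875499 per heart, but the table's FPKM denominators were 0.913 to 0.980 times these sums in Ctrl and 1.06 times in cKO hearts, so FPKM values carry the authors' own scaling. The number of reads sets the precision of low genes.

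The 12944 genes whose mean reached 0.5 FPKM were tested on log2(FPKM + 1) with limma (3.58.1, R 4.3.3; trended moderated test, Benjamini-Hochberg adjustment over all tested genes, threshold 0.05). Fold changes on this scale understate changes of low genes. Groups were taken from the genotype labels. Members, role groups, pathway lists, markers and motifs were chosen with earlier results of these data known, so no list is independent evidence of its direction. All members were named. Values in every heart were to be given for the 4 largest called changes of a role group, members that fell, that missed the threshold without overlap, that were under the filter or that overlap another gene, and from each list the 2 largest called changes in each direction; values of all remaining members were added after they were seen. The other settings tried were 0.1 as pseudocount, a filter at 1 FPKM or none, scaling by median of ratios or without mitochondrial genes, no trend, voom on the recovered reads, a replicate block and leaving out each heart. Scripts were tested on simulated data. Exact permutation tests used scipy (1.17.1). Mtrex was not found under that name. Wdr74 and Exosc6 were at 0 FPKM in all 6 hearts and were not tested.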

Additional observations from a re-analysis of the deposited data

How the results depend on the processing

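The number of members higher in cKO hearts lay between 15 (no filter on low values) and 24 (scaling without mitochondrial genes, and voom on recovered reads) when all 6 hearts were used, and 1 member, Nop53, was lower in each setting. The calls higher over all genes also differed between these settings. They were 1598 of 26855 tested with no filter, 2649 of 12945 with that scaling and 2351 of 12944 with voom. Leaving out 1 heart at a time gave 11 to 20 higher members, with medians from 0.37 to 0.46, while 1396 to 1977 genes were called higher overall. The median log2 fold change moved from 0.43 to 0.52 with a pseudocount of 0.1, to 0.50 with scaling without mitochondrial genes and to 0.56 with voom. Deviations of same-numbered hearts correlated at −0.06, 0.17 and −0.01. With so few hearts these values cannot show whether same-numbered hearts shared a litter or a day, and no pairing was assumed in the main test. With the replicate block 21 members were higher and 1 lower, beside 1874 higher and 1982 lower among all genes tested. In 392 comparisons of single members with their reported call, 46 calls were lost, 7 were gained and 0 changed sign, and 8 members (Rrp12, Nop16, Nop58, Utp18, Noc4l, Noc3l, Rrp36 and Utp20) were higher in all 14 settings. The cause of single lost calls was not tested. Depth limits Utp14b most, with 9 to 31 reads per heart.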

Other observations

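The members that were highest in cKO replicate 1 and those that were highest in cKO replicate 2 differed in base composition. The 10 members with their highest cKO level in replicate 1 (Noc2l, Noc4l, Nop10, Nop16, Nop9, Rrp1, Rrp36, Rrp7a, Rrp9 and Utp23) had a median transcript GC content of 55.3% and a median gene length of 2900 bases. The 16 members with their highest cKO level in replicate 2 had medians of 47.5% and 4115 bases. Across 11407 tested protein-coding genes measured in the same libraries, GC content and the log2 difference between these hearts had a Pearson r of −0.05, and replicate 1 was the highest cKO heart for 39.0% of genes and replicate 2 for 33.4%. This split was noticed after the values were seen, it rests on 1 heart each, and it was not tested.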
